A study of Mus musculus with 12 samples.

Results

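KPG1 lung tumors, which carry floxed alleles of the glucose transporter gene *Slc2a1*, were compared with KP tumors, which are labelled wt/wt for it, in mice kept on a regular diet. The comparison takes the 3 tumors labelled KPG1 and the 3 labelled KP, chosen by label, which are 6 of the 12 tumors sequenced. All mice had a C57BL/6 background, floxed *Trp53* alleles and a CCSP-rtTA transgene, in which the promoter of a club cell gene drives the doxycycline-responsive activator. All received 6000 lentiviral units of a single vector through the trachea. That vector holds Cre under the PGK promoter, which starts the tumors, and PPARαΔ13, a dominant negative PPARα, under a doxycycline-responsive promoter. The 6 tumors compared here were from mice on a regular diet without doxycycline, so both groups carry the vector without its induction. The other 6 tumors, KP-PPARαΔ13 and KPG1-PPARαΔ13, came from mice fed 625 mg/kg doxycycline for 15 days. They share 1 fit with the first 6, so they also set the estimate of spread behind every p-value and SE, and the same difference was measured again in them.

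Tumors were collected 26 weeks after initiation, and poly(A) RNA was sequenced from the CD45-negative fraction, which is what remains after immune cells are bound to magnetic beads and removed. By the number in the labels that is read as the mouse, the 3 KP tumors came from 2 mice, with KP_1 and KP_2 from a single mouse, and the 3 KPG1 tumors from 2 mice, with KPG1_1 and KPG1_2 from a single mouse. The KP tumors all grew in female mice and the KPG1 tumors all in male mice, so in these 6 tumors sex and genotype cannot be told apart. P-values measure the spread between tumors, some of which share a mouse.

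Glut1, the product of *Slc2a1*, is a carrier that lets glucose enter the cell down its gradient. Inside the cell, glycolysis turns glucose into pyruvate and lactate, the pentose phosphate pathway draws on it for NADPH, and mitochondria burn pyruvate or fatty acids. PPARα is a nuclear receptor that switches on fatty acid oxidation genes in the liver. Tumors of KP mice are lung adenocarcinomas, and alveolar type 2 cells, which make surfactant, are regarded as their main cells of origin.

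The total count per tumor was between 25263794 and 32654223. Levels below are CPM, read counts scaled to a common total, with library sizes corrected by TMM, a method that corrects for a few genes taking a large share of the reads. Correlations across genes between tumors were 0.94 to 0.96 except for those of KP_2, which were 0.90 to 0.93. In KP_2, the summed level of 6 alveolar type 1 markers was 187 CPM, against 1655 to 2399 CPM in the other tumors. Its 8 alveolar type 2 markers summed to 27564 CPM, against 47924 to 77168 CPM elsewhere. *Bpifa1*, a secreted airway protein, stood at 2022 CPM in KP_2, at 184 CPM in KP_3 and at no more than 8.6 CPM in the other tumors, and its log2 difference of -7.09 was -4.11 without KP_2. Values that rest on KP_2 are therefore given with and without it.

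Of 16527 genes tested, 6 passed the adjusted threshold of 0.05, which is 0.0363% of them, 4 higher (0.0242%) and 2 lower (0.0121%) in KPG1. Fitted with the 6 compared tumors alone, 10 genes passed, and with the tumors of a mouse summed, 2 passed, both higher. The unadjusted p was under 0.05 for 1030 genes (6.23%), 400 that were higher (2.42%) and 630 that were lower (3.81%). The groups did not overlap for 1644 genes (9.95%), 796 that were higher (4.82%) and 848 that were lower (5.13%). The biological coefficient of variation, the relative spread between tumors of a group, was 0.44.

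The summed markers of other cell types overlapped between the groups, except for neuroendocrine markers, most of which were under 1 CPM in all 6 tumors. Leukocyte markers summed to 122, 44.7 and 72.2 CPM in the KP tumors and to 42.4, 46.7 and 55.3 CPM in the KPG1 tumors. *Cd3e*, a defining T cell marker, was under 1 CPM in all 6. All 12 leukocyte markers that could be tested were lower in KPG1, with a median log2 fold change of -1.16. Of all 16527 genes tested, 8782 were lower, 630 of them (3.81%) at an unadjusted p under 0.05. *S100a9*, a neutrophil protein, was the 1 leukocyte marker with an unadjusted p under 0.05. The median of these markers was -0.41 without KP_1. Without KP_2, 6 of them had a p under 0.05, in a fit for which no share over all genes was taken. Endothelial markers summed to 257 to 533 CPM in KP and to 205 to 543 CPM in KPG1. Fibroblast markers summed to 139 to 342 CPM and to 114 to 430 CPM, and epithelial markers to 2334 to 4920 CPM and to 3052 to 5742 CPM. Smooth muscle markers summed to 53.8 to 170 CPM and to 64.3 to 149 CPM, mesothelial markers to 165 to 459 CPM and to 209 to 554 CPM, erythroid markers to 361 to 809 CPM and to 650 to 1009 CPM, club cell markers to 130 to 2131 CPM, the highest in KP_2, and to 145 to 386 CPM, and ciliated cell markers to 55.4 to 90.2 CPM and to 78.1 to 113 CPM. Neuroendocrine markers summed to 1.61 to 2.68 CPM and to 0.792 to 1.28 CPM, with 5 of the 6 under 1 CPM in all 6 tumors. Of the 6 mesothelial markers, *Upk3b*, *Wt1*, *Lrrn4* and *Gpm6a* were under 1 CPM in all 6 tumors. The mesothelial sum therefore came almost wholly from *Msln* and *Krt19*. The part of these cell types in the results was not tested, and fewer cells of a type cannot be told apart from less RNA per cell. The labelled sexes were matched by the data. *Xist*, the RNA that silences an X chromosome in females, stood at 2369, 6846 and 3409 CPM in the KP tumors and at 3.28, 0.482 and 0.496 CPM in the KPG1 tumors. *Eif2s3y*, on the Y chromosome, had no count in the KP tumors and 166, 60.9 and 127 CPM in the KPG1 tumors, at least 3297-fold more when the KP group is set to a floor of 3 counts. Of the 12 sex-linked genes, 4 were higher and 3 lower in KPG1 at an unadjusted p under 0.05, against 2.42% and 3.81% of all genes tested. None of the 12 passed the adjusted threshold. The same fit holds the doxycycline groups, in which both sexes occur.

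*Slc2a1* (ENSMUSG00000028645, mm10 chr4:119108711-119137983, plus strand) did not separate the groups by its gene count on the regular diet. It stood at 41.7, 35.3 and 57.7 CPM in the KP tumors and at 30.2, 64.0 and 39.9 CPM in the KPG1 tumors. The ranges overlapped widely, and the log2 fold change was -0.01 ± 0.36 (SE; adjusted p = 1.0 in edgeR's quasi-likelihood test). Which exons were floxed is not given in the sources used here, so how far a count over the whole gene can show the deletion is not known. In the doxycycline tumors *Slc2a1* stood at 153, 115 and 108 CPM in KP-PPARαΔ13 and at 23.7, 53.2 and 54.5 CPM in KPG1-PPARαΔ13. There the groups did not overlap, with a log2 difference of -1.51 ± 0.36 (unadjusted p = 0.0014, adjusted p = 0.46 in edgeR). The difference between the diets was 1.51 ± 0.50 (unadjusted p = 0.012, adjusted p = 0.35 in edgeR). *Trp53*, floxed in both groups, was at 5.85, 8.398 and 9.74 CPM in KP and at 7.36, 6.88 and 8.79 CPM in KPG1.

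No other carrier of glucose passed the test either. Of 17 genes for glucose and hexose carriers, 12 were expressed enough to be tested, and 5 were higher and 7 lower in KPG1. None of the 12 had an unadjusted p under 0.05 in edgeR, against 6.23% of all genes tested. *Slc2a3*, the gene of the high-affinity carrier Glut3, varied widely, at 313, 35.0 and 202 CPM in KP and at 268, 33.6 and 330 CPM in KPG1. Each group held tumors with high and with low *Slc2a3*. *Slc50a1*, a carrier of the SWEET family, was the only 1 of the 12 whose groups did not overlap, against 9.95% of all genes tested. It stood at 49.7, 43.2 and 43.5 CPM in KP against 51.3, 60.6 and 76.3 CPM in KPG1. Its log2 difference was 0.46 ± 0.30 (adjusted p = 0.81 in edgeR). The sodium-coupled carrier *Slc5a1* stood at 18.97, 12.4 and 6.02 CPM in KP and at 14.8, 17.5 and 27.9 CPM in KPG1. *Slc2a12* (1.07 ± 1.01), *Slc2a8* (-0.50 ± 0.42), *Slc2a9* (-0.56 ± 0.70) and *Slc2a10* (-0.11 ± 0.55) had log2 differences close to or below their standard errors. *Slc2a5*, *Slc2a7*, *Slc5a2*, *Slc5a4a* and *Slc5a4b* were too low to test.

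Among the 6 genes, 5 closely resembled another gene in sequence, and all 4 that rose resembled genes on chromosome 4 that lie beyond *Slc2a1*. *Gm10036*, a processed pseudogene, had 1.30, 1.49 and 1.18 CPM in the KP tumors and 35.9, 36.3 and 42.9 CPM in the KPG1 tumors. No KPG1 tumor came near a KP tumor, and the log2 fold change was 4.85 ± 0.28 (adjusted p = 2.8e-05). Its transcript is 99.25% identical over 534 bases to that of *Rpl11*, a protein of the large ribosomal subunit. *BC002163* (ENSMUSG00000081824, chr16:42955631-42955949), also a processed pseudogene, rose from 0.479, 0.333 and 0.244 CPM to 8.92, 8.16 and 14.6 CPM, a log2 fold change of 4.89 ± 0.40 (adjusted p = 0.00051). It matches *Ndufs5*, a subunit of respiratory complex I, at 99.37% over 319 bases. *Gm7125* (ENSMUSG00000069996, chr15:68792320-68883576, annotated as a long intergenic RNA) had 1 count in the 3 KP tumors together and 132 in the 3 KPG1 tumors, a ratio of 133.7 per total count with an exact 95% interval of 23.6 to 5322 that covers counting error only (adjusted p = 0.043). *Gm6594* (ENSMUSG00000073371, chr17:82539260-82539545) had 1 count and 66 counts, a ratio of 66.9 with an interval of 11.6 to 2681 (adjusted p = 0.043). Both resemble *Hmgn2*, a nucleosome-binding protein, at 97.44% and 91.96%.

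The letters that separate a copy from the gene it resembles are few. The stretches below run from base 18 to base 167 of the *Ndufs5* coding sequence, from base 45 to base 194 of that of *Hmgn2* and from base 280 to base 429 of that of *Hba-a1*, in GENCODE M21 transcripts of mm10. Capitals mark the bases that differ within a pair, 2 in the first, 7 in the second and 1 in the third, and show over how few positions a short read can be assigned to the copy.
BC002163: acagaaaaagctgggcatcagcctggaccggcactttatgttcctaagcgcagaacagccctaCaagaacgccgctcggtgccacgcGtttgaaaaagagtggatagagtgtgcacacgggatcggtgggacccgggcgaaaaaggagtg
Ndufs5: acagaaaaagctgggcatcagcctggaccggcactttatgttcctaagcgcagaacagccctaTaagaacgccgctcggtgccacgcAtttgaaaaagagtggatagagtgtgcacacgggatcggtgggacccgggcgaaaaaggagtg
Gm7125: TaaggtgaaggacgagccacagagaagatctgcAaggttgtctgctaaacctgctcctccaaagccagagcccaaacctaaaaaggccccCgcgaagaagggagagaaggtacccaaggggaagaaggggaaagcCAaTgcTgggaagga
Hmgn2: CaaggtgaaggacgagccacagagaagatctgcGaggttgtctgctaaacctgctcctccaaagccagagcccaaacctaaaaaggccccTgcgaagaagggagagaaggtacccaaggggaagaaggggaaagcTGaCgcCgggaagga
Hba-a2: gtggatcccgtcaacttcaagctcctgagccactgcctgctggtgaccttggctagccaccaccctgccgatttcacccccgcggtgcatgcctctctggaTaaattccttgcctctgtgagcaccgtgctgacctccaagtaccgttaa
Hba-a1: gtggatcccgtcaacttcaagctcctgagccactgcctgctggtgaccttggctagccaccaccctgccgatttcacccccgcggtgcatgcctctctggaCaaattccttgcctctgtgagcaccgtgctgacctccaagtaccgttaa

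The genes that the copies resemble did not separate the groups. *Rpl11* stood at 117, 145 and 96.8 CPM in KP and at 123, 102 and 138 CPM in KPG1. *Ndufs5* stood at 20.6, 17.2 and 28.9 CPM and at 16.4, 17.7 and 26.6 CPM, and *Hmgn2* at 53.3, 117 and 83.0 CPM and at 73.4, 68.6 and 72.5 CPM. All of these groups overlapped; like *Gm11223* and *Stmn1*, the resembled genes were named after their values were seen.

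The share of the reads that fell on the copy separated the genotypes in each tumor. Of the CPM summed over *Gm10036* and *Rpl11*, the copy held 1.10%, 1.02% and 1.21% in the KP tumors and 22.7%, 26.3% and 23.7% in the KPG1 tumors. *BC002163* held 2.27%, 1.90% and 0.837% of its sum with *Ndufs5* in KP, and 35.2%, 31.6% and 35.5% in KPG1. *Gm11223*, a processed pseudogene that is 99.78% identical to *Stmn1* (a microtubule regulator), held 0.507% to 1.11% in KP and 9.39% to 11.5% in KPG1, though its own log2 difference of 3.16 ± 0.58 did not pass the test (adjusted p = 0.34). The summed level of *Gm10036* and *Rpl11* was 119, 146 and 98.0 CPM in KP and 158, 138 and 181 CPM in KPG1, with overlap. *Rpl11*, *Ndufs5*, *Hmgn2* and *Stmn1* all lie on chromosome 4, between 4.60 and 16.9 Mb after the start of *Slc2a1*. The DNA sequence of this interval was not examined here.

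**Figure D1:**
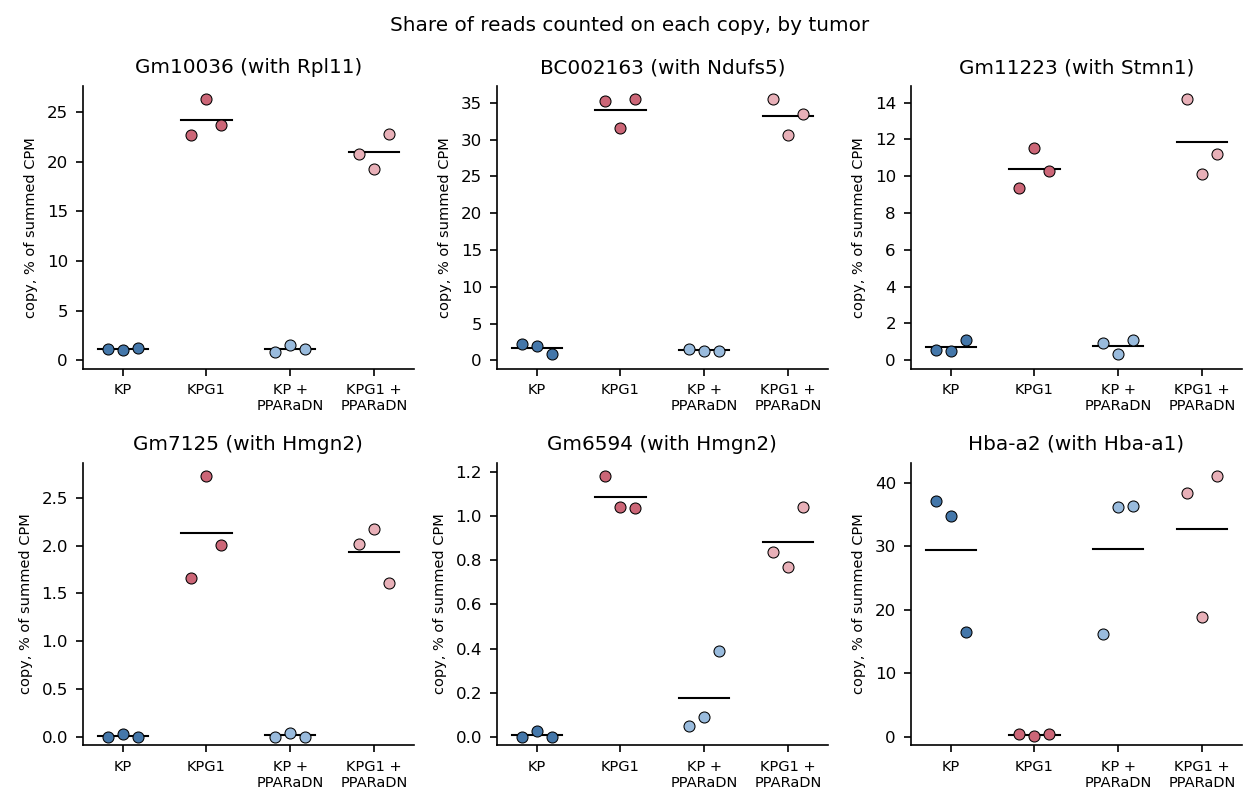
Share of reads on each copy, as a percent of the CPM summed over the copy and the gene named with it (vertical axis), for each of the 12 tumors; points are tumors and lines are means of 3. KP and KPG1 tumors are separated for the 5 copies of chromosome 4 genes on both diets, while for Hba-a2 only the KPG1 tumors on the regular diet are near 0.

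*Hba-a2*, 1 of 2 genes for the alpha chain of hemoglobin, fell in KPG1. It had 26.2, 13.1 and 17.6 CPM in the KP tumors and 0.240, 0.103 and 0.529 CPM in the KPG1 tumors (ENSMUSG00000069917, chr11:32296489-32297298; log2 fold change -5.99 ± 0.74, adjusted p = 0.025). *Hba-a1*, which is 99.81% identical, did not separate the groups, at 44.4, 24.6 and 89.0 CPM in KP and 65.2, 68.7 and 126 CPM in KPG1, and the sum of both was 70.5, 37.7 and 107 CPM against 65.4, 68.8 and 127 CPM. Since the copies share nearly all their letters, the split of reads between them is uncertain.

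*Tcea3*, a factor that helps RNA polymerase II to elongate, was the other gene that fell and the only one of the 6 without so close a relative. Its level was 28.3, 38.5 and 38.6 CPM in the KP tumors and 4.16, 3.72 and 7.80 CPM in the KPG1 tumors (ENSMUSG00000001604, chr4:136247729-136274898; log2 fold change -2.75 ± 0.39, adjusted p = 0.043). It lies 17.1 Mb after *Slc2a1*. A sex covariate can be estimated here only through the doxycycline tumors, since sex and genotype coincide in the tumors compared. With sex as a covariate, *Gm10036* (adjusted p = 0.0019) and *BC002163* (adjusted p = 0.030) passed, and the other 4 did not, at 0.41 for *Hba-a2* and 0.96 for *Gm7125*, *Gm6594* and *Tcea3*. With the tumors of a mouse summed, *Gm10036* (adjusted p = 0.0087) and *BC002163* (adjusted p = 0.030) again were the 2 that passed, and the adjusted p was 0.18 for *Hba-a2*, 0.76 for *Tcea3*, 0.56 for *Gm7125* and 0.65 for *Gm6594*. Without KP_2 the adjusted p was 0.18 for *Tcea3*, 0.14 for *Gm7125* and 0.13 for *Gm6594*.

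In the doxycycline tumors, which share the estimate of spread but no group mean with the first comparison, 4 of the 6 genes passed the same test in the same direction, where 5 of all genes tested (0.0303%) were called, 4 higher (0.0242%) and 1 lower (0.00605%). The fifth was *Gm11223*, with a log2 fold change of 4.64 ± 0.62 (adjusted p = 0.042). At an unadjusted p under 0.05, 1601 genes (9.69%) differed there, 868 higher (5.25%) and 733 lower (4.44%). The log2 fold change of KPG1-PPARαΔ13 over KP-PPARαΔ13 was 4.89 ± 0.28 for *Gm10036* (adjusted p = 2.5e-05), 4.81 ± 0.40 for *BC002163* (adjusted p = 0.00059), 6.53 ± 0.90 for *Gm7125* as fitted (adjusted p = 0.045) and -3.35 ± 0.40 for *Tcea3* (adjusted p = 0.017). *Tcea3* stood at 18.4, 16.4 and 34.8 CPM in KP-PPARαΔ13 and at 2.76, 1.79 and 2.25 CPM in KPG1-PPARαΔ13. *Gm6594* did not pass (2.89 ± 0.63, adjusted p = 0.46), although its groups did not overlap there. For *Hba-a2* the log2 difference was 0.21 ± 0.56, with 53.7, 75.1 and 34.4 CPM against 122, 29.1 and 37.1 CPM. The difference between the diets for *Hba-a2* was -6.20 ± 0.91 and did not pass after adjustment over all genes (adjusted p = 0.33).

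Other genes near *Tcea3* were also lower in KPG1 on both diets, though none of these passed the adjusted threshold on the regular diet. In the 30 Mb after *Slc2a1*, 387 genes were tested, of which 6 were higher and 21 lower at an unadjusted p under 0.05 on the regular diet. For 10 of them (2.58%) the p was under 0.05 with a lower level on both diets, against 23 of all genes tested (0.139%) and 0.0840% of the genes on other chromosomes. In the 30 Mb before *Slc2a1*, 0 of 194 genes had this, and higher on both diets was 1 of the 387. These regions and genes were chosen after their values were seen, and the p-values are edgeR's, unadjusted.

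*Rhbdl2*, a membrane protease of the rhomboid family that lies 4.68 Mb after *Slc2a1*, stood at 7.98, 1.82 and 12.4 CPM in KP and at 0.680, 0.413 and 0.297 CPM in KPG1 (log2 difference -3.99 ± 0.85). *Map3k6*, a kinase of the stress-activated cascade, was at 6.27, 3.61 and 4.94 CPM in KP and at 1.96, 0.929 and 2.31 CPM in KPG1. *Cep85*, a centrosome protein, was at 50.2, 65.1 and 33.9 CPM in KP and at 18.2, 24.6 and 30.8 CPM in KPG1. None of these 3 overlapped between the groups. *Zfp46*, a zinc finger gene 17.2 Mb after *Slc2a1*, was at 25.2, 29.0 and 25.3 CPM against 15.2, 14.0 and 16.6 CPM. *Hdac1*, a histone deacetylase, was at 72.8, 78.2 and 76.7 CPM against 39.3, 45.1 and 69.5 CPM. With *Tcea3*, *Aunip* (-1.61 ± 0.55), *Rcan3* (-0.47 ± 0.17), *Sfn* (-1.04 ± 0.39) and *Serinc2* (-1.34 ± 0.59) complete the 10, each with its log2 difference, the last 2 with overlapping groups. With sex as a covariate the count was 5 in place of 10, and with a mean of at least 20 CPM it was 6. *Gm13231* was the gene that was higher on both diets, and there the difference on the regular diet rested on KPG1_1 alone, at 6.36 CPM, the other 5 tumors being at 0.0342 to 0.0696 CPM.

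**Figure D2:**
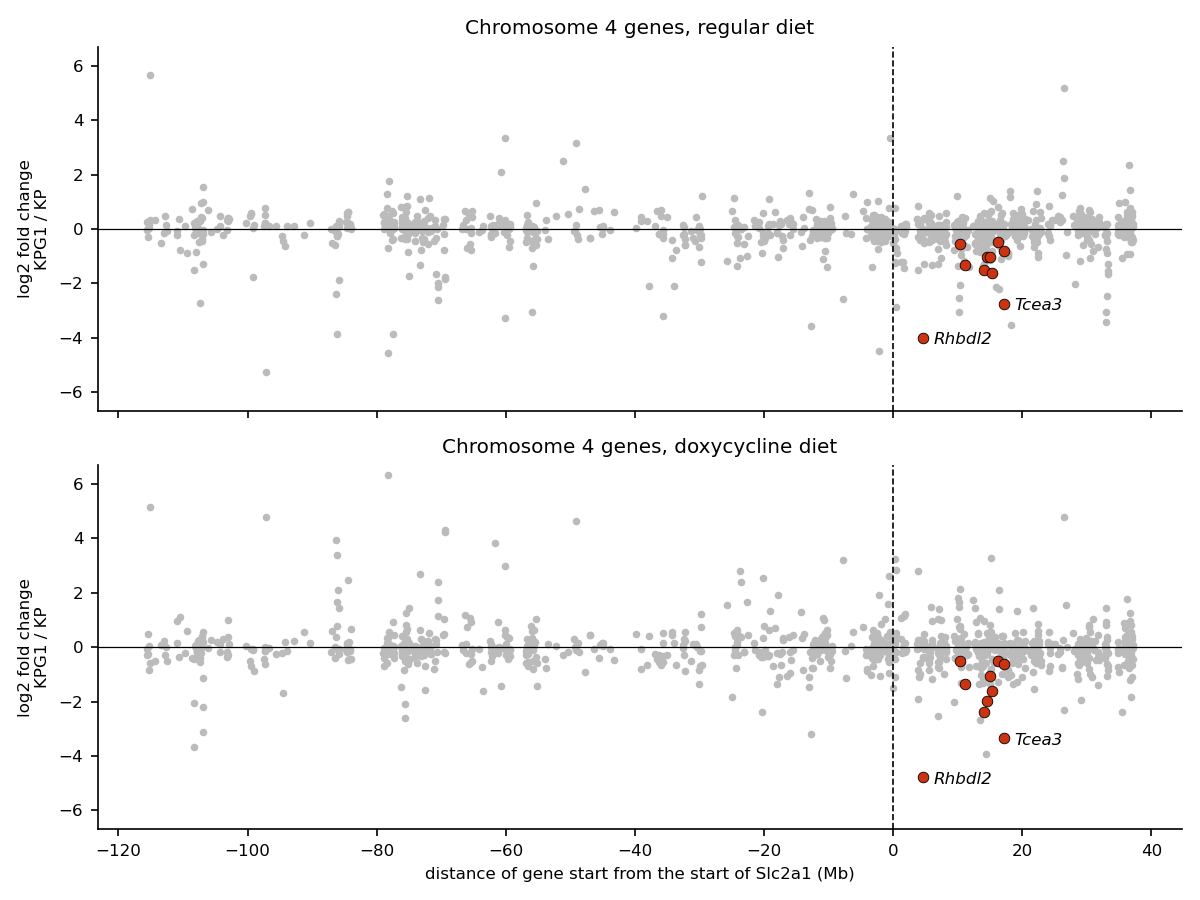
Log2 fold change of KPG1 over KP (vertical axis) for each gene tested on chromosome 4, against the distance of its start from that of Slc2a1 in Mb (horizontal axis), on the regular diet (top) and the doxycycline diet (bottom). Red points are the 10 genes with a lower level and an unadjusted p under 0.05 on both diets, all of them after Slc2a1 and led by Rhbdl2 and Tcea3.

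The glycolysis list leaned higher in KPG1 without any member passing the adjusted threshold. Of 28 genes tested, 22 were higher (78.6%, against 46.9% of all genes tested), 5 had an unadjusted p under 0.05 with a higher level (2.42% over all genes) and none was lower at that level. The median log2 fold change was 0.28, against -0.03 over all genes tested, and it ran from 0.11 without KPG1_2 to 0.44 without KP_1. *Ldha*, which turns pyruvate into lactate, was at 760, 673 and 1002 CPM in the KP tumors and at 1390, 1817 and 1154 CPM in the KPG1 tumors, a log2 difference of 0.84 ± 0.26 (adjusted p = 0.78). *Slc16a1*, the lactate exporter Mct1, stood at 106, 89.2 and 80.5 CPM in KP and at 128, 128 and 109 CPM in KPG1, and *Bsg*, the chaperone that brings it to the membrane, at 707, 422 and 682 CPM and at 1023, 909 and 808 CPM. *Aldoa*, an aldolase, was at 748, 634 and 806 CPM against 1088, 1250 and 941 CPM. None of these 4 overlapped. *Pgam2*, a mutase known from muscle, was the fifth, at 0.240, 0.0606 and 0.209 CPM against 1.20, 0.964 and 0.760 CPM.

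Among members with a mean of at least 1 CPM, the largest log2 differences were those of *Gapdh* (1.42 ± 0.86), at 23.5, 120 and 52.3 CPM in KP and 129, 280 and 114 CPM in KPG1, with overlap, and *Pgam1* (0.88 ± 0.44), at 21.6, 21.8 and 40.7 CPM against 40.04, 73.2 and 41.2 CPM. The lowest were *Eno3* (-0.40 ± 0.57) and *Pfkfb1* (-0.46 ± 0.39), both with overlap. Hexokinase 2 (*Hk2*) was at 164, 194 and 156 CPM in KP and at 170, 210 and 124 CPM in KPG1, with no separation. Averaged over the list, the log2 deviation from the mean of the 6 tumors was -0.08, -0.33 and -0.16 in KP and 0.08, 0.43 and 0.07 in KPG1, so the groups did not overlap. Without KP_2 the median was 0.20, and 2 genes of the list had a p under 0.05. In the doxycycline tumors the median of the list was -0.30, with 4 of 28 genes higher in KPG1-PPARαΔ13, against 50.5% of all genes tested. The difference between the diets had an unadjusted p under 0.05 for 9 of the 28 genes, against 1952 of all genes tested (11.8%). The adjusted p of that difference was under 0.05 for 0 genes in edgeR and in limma voom and for 279 in DESeq2.

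**Figure D3:**
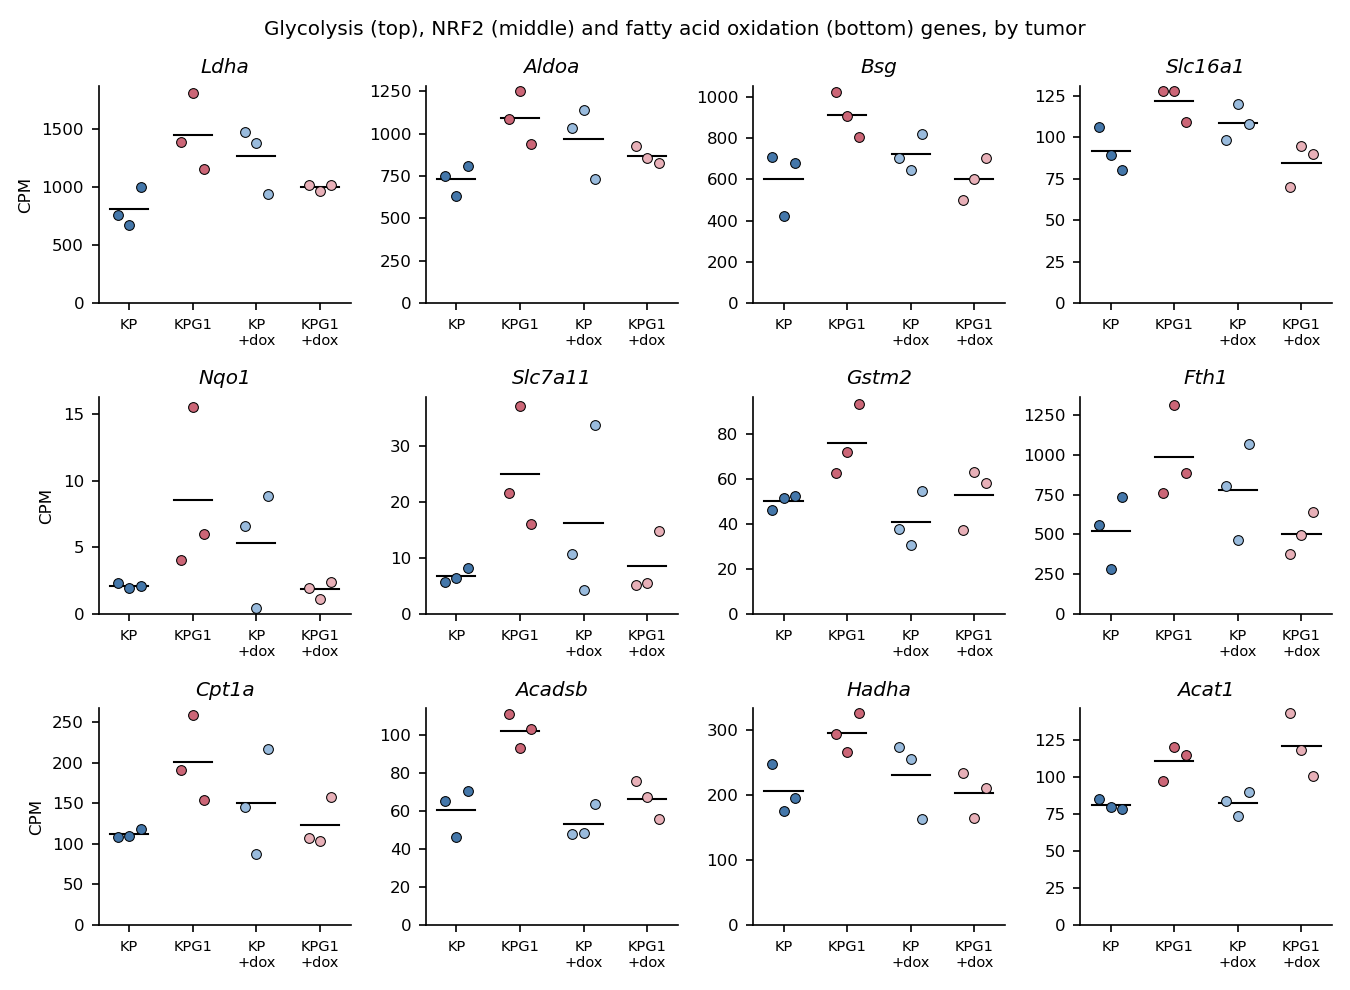
Level in CPM (vertical axes, from 0) of 4 glycolysis and lactate genes, 4 NRF2 genes and 4 fatty acid oxidation genes in each of the 12 tumors; points are tumors, lines are means of 3, and +dox marks the PPARαΔ13 groups on doxycycline. On the regular diet KP and KPG1 tumors do not overlap for these 12 genes, which were picked for that, while on doxycycline all but Slc16a1 and Acat1 overlap.

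Antioxidant genes under the control of NRF2, the transcription factor that answers oxidative stress, had the highest median of the 32 pathway and lineage lists plotted. Of 35 genes tested, 32 were higher in KPG1, against 46.9% of all genes, 6 at an unadjusted p under 0.05, against 2.42%, and none lower at that level, with a median log2 fold change of 0.37. *Nqo1*, a quinone reductase and classical NRF2 target, was at 2.36, 1.94 and 2.09 CPM in KP and at 4.04, 15.5 and 6.01 CPM in KPG1 (log2 difference 2.00 ± 0.81, adjusted p = 0.79). *Slc7a11*, which imports cystine for glutathione, was at 5.65, 6.52 and 8.25 CPM in KP and at 21.7, 37.2 and 16.1 CPM in KPG1 (1.88 ± 0.67, adjusted p = 0.78). Neither overlapped. The glutathione transferase *Gstm2* was at 46.1, 51.2 and 52.4 CPM against 62.3, 72.0 and 93.1 CPM. *Fth1*, the heavy chain of the iron store ferritin, was at 558, 284 and 733 CPM against 758, 1313 and 885 CPM. *Ces1g* (2.07 ± 0.82) and *Gstp1* (0.97 ± 0.42), an esterase and another glutathione transferase, overlapped between the groups. At the low end, heme oxygenase (*Hmox1*) was at 188, 62.1 and 86.9 CPM against 82.3, 84.8 and 88.0 CPM, and *Gpx3* had a log2 difference of -0.13 ± 0.59. Averaged over the list, the deviations were -0.12, -0.52 and -0.15 in KP and -0.06, 0.44 and 0.41 in KPG1. Without KP_2, 1 gene of the list had a p under 0.05, and the median was 0.29. On doxycycline the median was -0.17.

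Mitochondrial fatty acid oxidation showed a similar lean. Of 27 genes tested, 23 were higher in KPG1 (85.2%, against 46.9% of all genes), 5 of them at an unadjusted p under 0.05 (2.42% over all genes), with a median log2 fold change of 0.26. *Cpt1a*, which admits long-chain fatty acids to mitochondria, was at 109, 110 and 118 CPM in KP and at 191, 259 and 154 CPM in KPG1 (0.84 ± 0.31, adjusted p = 0.78). *Acadsb*, a dehydrogenase of short branched acyl chains, was at 65.2, 46.4 and 70.4 CPM against 111, 93.0 and 103 CPM (0.75 ± 0.21, adjusted p = 0.78). Neither overlapped. *Hadha*, of the trifunctional protein, was at 248, 175 and 195 CPM against 295, 267 and 326 CPM, and *Acat1*, a thiolase, at 85.1, 80.1 and 78.7 CPM against 97.7, 121 and 115 CPM. *Echs1*, an enoyl-CoA hydratase, overlapped between the groups (0.68 ± 0.22). The lowest members were *Mlycd* (-0.49 ± 0.33) and *Slc22a5* (-0.09 ± 0.29), both with overlap. Without KP_2, 3 genes of the list had a p under 0.05, and the median was 0.25, and without KP_1 it was 0.42. On doxycycline the median of the list was 0.09.

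Genes known as PPARα targets in liver, many of them shared with that list, had 33 of 49 higher in KPG1, against 46.9% of all genes. Their median was 0.18. In edgeR, 4 had an unadjusted p under 0.05, all higher, against 2.42% of all genes that were higher and 6.23% in either direction. These were *Cpt1a* and *Hadha*, both already counted above, the peroxisomal enzyme *Ehhadh* and the desaturase *Fads1*. The average over the list did not lean that way, with deviations of 0.09, -0.0045 and -0.03 in KP and -0.07, -0.21 and 0.22 in KPG1, a difference of -0.04 with overlap. Without KP_2 the median was 0.12 with 2 members at that level, and without KPG1_3 it was 0.099. *Ppara* itself overlapped, at 15.7, 10.5 and 9.54 CPM in KP and 7.24, 10.5 and 15.3 CPM in KPG1. *Angptl4*, a secreted lipase inhibitor, was at 15.3, 5.12 and 30.3 CPM against 51.5, 26.2 and 19.99 CPM, with overlap. At the low end, *Pdk4*, which shuts pyruvate out of the TCA cycle, was at 64.0, 11.8 and 15.3 CPM against 21.8, 0.929 and 1.02 CPM.

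The remaining mitochondrial and peroxisomal lists were closer to the median of all genes. For comparison, 46.9% of all genes tested were higher. An unadjusted p under 0.05 in edgeR was found for 6.23% of all genes, with 2.42% higher at that level. Peroxisomal genes had 36 of 55 higher and a median of 0.10, which was -0.096 without KPG1_3, with *Dao*, an amino acid oxidase, at the top end (0.0685, 0.0910 and 0.0348 CPM in KP against 0.600, 1.82 and 1.59 CPM in KPG1) and *Prdx5* at 74.1, 57.8 and 110 CPM against 111, 211 and 115 CPM. *Ehhadh* and *Tmem135* were the other 2 of the 4 with a p under 0.05, all higher. Nuclear-encoded respiratory chain subunits had 52 of 77 higher, with a median of 0.11, and 4 at a p under 0.05, *Ndufs8*, *Cox8a*, *Atp5g2* and *Atp5j*. Without KP_2 the median of the chain was 0.01, with 40 of 77 higher, and 1 higher and 1 lower at a p under 0.05. Without KPG1_3 the median was 0.01. The TCA cycle list had a median of 0.05, with *Aco1* (an aconitase) and *Me1* (malic enzyme) at a p under 0.05, and the pentose phosphate list a median of 0.01 with none.

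Glycogen genes pointed both ways. *Pygl*, the phosphorylase that breaks down glycogen, was at 281, 301 and 51.1 CPM in KP and at 20.3, 39.3 and 27.1 CPM in KPG1, a log2 difference of -2.87 ± 0.82 (adjusted p = 0.78). *Gys1*, the synthase that builds it, was at 113, 130 and 113 CPM against 145, 175 and 173 CPM (0.47 ± 0.18, adjusted p = 0.78). Neither overlapped. On doxycycline the log2 difference of *Pygl* was 2.16. *Txnip*, whose transcription follows glucose through MondoA, overlapped, at 1003, 873 and 1241 CPM in KP and 1697, 833 and 1592 CPM in KPG1, and *Mlxipl*, the glucose sensor ChREBP, was lower at a p under 0.05 with overlap and a log2 difference of -2.31, which was -0.50 without KP_2.

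In lipid synthesis, fatty acid synthesis genes had a median of 0.03 and lipid droplet genes of 0.09. Over all genes tested, 6.23% had an unadjusted p under 0.05 in edgeR, 2.42% higher and 3.81% lower. *Gpam*, the first enzyme of triglyceride synthesis, was at 8.73, 10.9 and 13.2 CPM in KP and at 30.04, 30.2 and 14.6 CPM in KPG1. *Acsl5*, an acyl-CoA synthetase, was at 194, 189 and 532 CPM against 549, 940 and 519 CPM, with overlap. *Elovl2*, an elongase, was high in KP_2, at 90.2 CPM against 2.29 and 4.04 CPM in the other KP tumors and 0.480 to 0.694 CPM in KPG1. *Cideb* and *Bscl2* were the other droplet genes at a p under 0.05, and *Acat2* and *Scap* the only cholesterol genes, both lower. Amino acid carriers split, with *Slc1a5*, a glutamine importer, at 198, 167 and 171 CPM against 332, 280 and 215 CPM, and *Slc7a8* (-2.80, and -0.58 without KP_2) and *Slc38a1* (-2.47 and -1.62) highest in KP_2. No bile acid gene had a p under 0.05 among 26 tested, a list too short for that to differ clearly from the share over all genes. *Mat2a*, which makes S-adenosylmethionine, was the only gene at a p under 0.05 among serine and one-carbon genes, lower in KPG1.

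**Figure D4:**
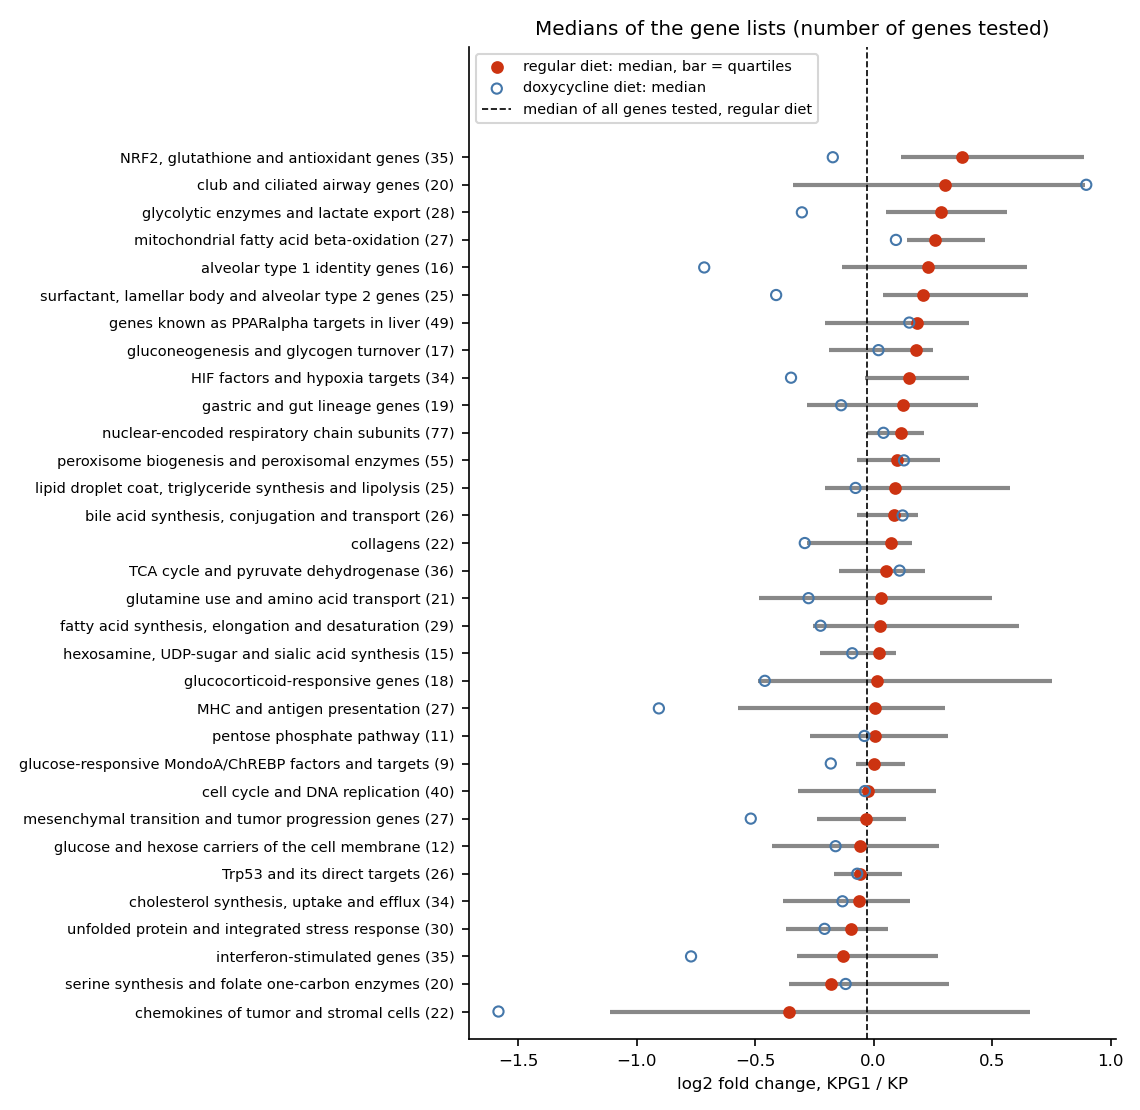
Median log2 fold change of KPG1 over KP (horizontal axis) for each of 32 pathway and lineage lists, with the number of genes tested in brackets; red points are medians on the regular diet, grey bars their quartiles, open blue circles medians on the doxycycline diet, and the dashed line the median of all genes tested. The NRF2 list has the highest median at 0.37 and chemokines the lowest at -0.36, and several lists change side on doxycycline.

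Lineage and proliferation lists differed in their lean, where 6.23% of all genes tested had an unadjusted p under 0.05 in edgeR. Club and ciliated airway genes had 13 of 20 higher, against 46.9% of all genes, and a median of 0.30, which was 0.38 without KP_2 and 0.18 without KPG1_3. Their averaged deviations were -0.14, -0.04 and -0.12 in KP and 0.09, 0.15 and 0.06 in KPG1, without overlap. The 2 cell types differed in their lean. Of the 6 club cell markers 2 were higher, with a median of -1.24, and without KP_2 3 were higher, with a median of 0.46. Of the 6 ciliated cell markers 4 were higher, with a median of 0.63, which was 0.36 without KP_2. Surfactant and alveolar type 2 genes had 19 of 25 higher and a median of 0.21, which was 0.12 without KP_2, with none at an unadjusted p under 0.05. Surfactant protein C (*Sftpc*) was at 14879, 6907 and 26488 CPM in KP and at 19367, 26491 and 29952 CPM in KPG1, and *Lamp3*, of the lamellar body, at 880, 537 and 941 CPM against 1233, 1641 and 1056 CPM. KP_2 held the lowest value of both. Alveolar type 1 genes had a median of 0.23, which was -0.14 without KP_2. Genes of mesenchymal transition and progression had a median of -0.03, with none at a p under 0.05, and *Hmga2*, a marker of advanced tumors, was at 0.137, 2.97 and 9.74 CPM in KP against 1.00, 0.757 and 0.132 CPM in KPG1. Cell cycle genes had a median of -0.02, and the proliferation marker *Mki67* was at 74.2, 145 and 130 CPM against 219, 124 and 94.2 CPM. *Mcm2* (-0.93, and -0.33 without KP_2) and *E2f1* (-1.17 and -0.63), both highest in KP_2, were the 2 cell cycle genes at a p under 0.05. *Foxa1*, a pioneer factor of the airway, was at 142, 120 and 83.8 CPM in KP and at 68.0, 63.7 and 57.2 CPM in KPG1, and *Tff3*, of mucous cells, was the other gut list gene at that level. *Aldh1a1* was the only airway gene higher at a p under 0.05 and *Bpifa1* the only one lower.

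Immune-response and stress lists were likewise mixed, where 46.9% of all genes tested were higher and 6.23% had an unadjusted p under 0.05 in edgeR. Interferon-stimulated genes had 12 of 35 higher and a median of -0.13, with *Isg20* higher and *Rsad2* (-2.27, and -0.72 without KP_2) and *Cmpk2* (-0.96 and -0.52) lower at an unadjusted p under 0.05. Antigen presentation genes had a median of 0.01, with *Cd274*, the ligand PD-L1, highest in KP_2 (-1.61, and -0.41 without it). Chemokines had the lowest median of the lists plotted, -0.36, which was 0.089 without KP_1, with *Cxcl1* higher and *Ccl5* lower at a p under 0.05. Hypoxia genes had 23 of 34 higher and a median of 0.15, and without KP_2 they had 19 of 34 higher and a median of 0.050. Among them, *Bnip3*, a mitophagy receptor, was at 123, 145 and 123 CPM in KP and at 216, 219 and 180 CPM in KPG1, with its relative *Bnip3l* the other at that level. *Zmat3* among p53 targets, *Vldlr* among stress genes and *Col15a1* and *Col16a1* among collagens were the only members at a p under 0.05. In the glucocorticoid list, *Fkbp5* was lower and *Klf9* higher. The medians of the lists not yet given were 0.18 for gluconeogenesis and glycogen, 0.00 for glucose-sensing factors, 0.02 for hexosamine synthesis, -0.18 for serine, 0.03 for glutamine, 0.09 for bile acids, -0.06 for cholesterol, 0.12 for gut genes, -0.06 for p53 targets, -0.10 for the stress response, 0.01 for glucocorticoid genes and 0.07 for collagens.

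Across all genes, the protein-coding genes with the smallest p-values that missed the threshold and did not overlap were taken, 15 in each direction. *Gm10116*, which the annotation calls protein-coding, was at 14.8, 31.3 and 20.6 CPM in KP and at 92.1, 104 and 145 CPM in KPG1 (log2 difference 2.36 ± 0.43, adjusted p = 0.34). *Afm*, a vitamin E carrier, was at 0.650, 1.91 and 2.19 CPM against 10.3, 10.9 and 7.53 CPM (2.59 ± 0.52, adjusted p = 0.54). *Aldh2*, the mitochondrial acetaldehyde dehydrogenase, was at 421, 375 and 442 CPM against 648, 887 and 1086 CPM (1.08 ± 0.26, adjusted p = 0.78). The groups were apart for these 3, and on doxycycline *Gm10116* alone among them was again higher, with a log2 difference of 1.32 against -1.59 for *Afm* and -0.44 for *Aldh2*.

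Further genes that were higher included the mitochondrial enzymes *Prdx3* and *Ak3*. *Rfk*, riboflavin kinase, which makes the flavin cofactor of dehydrogenases, was at 191, 126 and 226 CPM in KP and at 463, 713 and 320 CPM in KPG1 (1.46 ± 0.37). *Prdx3*, a mitochondrial peroxiredoxin, was at 99.9, 51.2 and 124 CPM against 145, 246 and 202 CPM, and *Ak3*, a mitochondrial adenylate kinase, at 70.4, 86.6 and 127 CPM against 166, 235 and 146 CPM. *Cyp3a13*, a cytochrome P450, was at 32.9, 20.2 and 42.8 CPM against 68.7, 73.6 and 71.0 CPM. The glycerol channel *Aqp3* (1.78 ± 0.48), *Sema4g* (1.69 ± 0.46), *Syt8* (2.10 ± 0.54), *Nav2* (0.79 ± 0.22) and *Plcb3* (0.92 ± 0.26) were also among the 15, as were *Acadsb* and the Y-linked *Uty* and *Ddx3y*.

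Among those that were lower, *Fkbp5*, a glucocorticoid-induced chaperone, was at 53.03, 39.99 and 33.2 CPM in KP and at 22.9, 16.1 and 15.7 CPM in KPG1 (-1.21 ± 0.26, adjusted p = 0.73). *Tiam1*, an activator of Rac, was at 15.0, 9.52 and 7.24 CPM against 3.28, 3.20 and 3.999 CPM, and *Adpgk*, an ADP-dependent glucokinase, at 21.5, 30.01 and 22.1 CPM against 14.4, 12.6 and 12.6 CPM. *Anpep* (-1.01 ± 0.25), *Hsdl1* (-0.79 ± 0.21) and *Stxbp5* (-0.76 ± 0.20) had smaller differences without overlap. The other 8, besides *Rhbdl2*, were highest in KP_2 by a wide margin. *Zswim5* was at 2.81, 16.7 and 2.82 CPM in KP and at 0.120, 0.482 and 0.364 CPM in KPG1, and its log2 difference of -4.50 was -3.10 without KP_2. *Satb1*, a chromatin organizer, was at 78.0 CPM in KP_2 against 0.445 and 3.62 CPM in the other KP tumors, and its log2 difference of -6.63 was -2.88 without KP_2. *Plg*, plasminogen, held 684 counts in the KP tumors, most of them in KP_2, and 1 count in the KPG1 tumors. *Lphn1* (-2.36, and -1.57 without KP_2), *Ncs1* (-3.23 and -2.33), *Izumo1* (-3.09 and -1.88), *Pkdrej* (-2.89 and -2.04) and *Elovl2* (-5.68 and -2.34) followed the same pattern.

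Of the 15 genes that were higher, *Rfk*, *Sema4g*, *Plcb3*, *Prdx3* and *Ak3* lie on chromosome 19, as do *Cpt1a*, *Fads1*, *Acsl5*, *Gpam*, *Prdx5*, *Pgam1*, *Gstp1*, *Fth1*, *Cox8a* and *Ndufs8* of the lists. The level of each whole chromosome was therefore taken per tumor, a measure chosen after these values were seen, over 10173 genes with a mean of at least 10 CPM. Chromosome 19 had 364 such genes, of which 341 were higher in KPG1 and 72 had an unadjusted p under 0.05 and a higher level (19.8%, against 2.59% over all chromosomes). Its median log2 fold change was 0.56, against 0.00 over all chromosomes. Deviations of genes from their means over the 6 tumors were taken, less the median deviation of all these genes in the same tumor. For chromosome 19 their median was -0.66, -0.41 and 0.24 in the KP tumors and 0.13, 0.67 and 0.05 in the KPG1 tumors. The groups therefore overlapped for the chromosome as a whole, with KP_3 above KPG1_1 and KPG1_3. Without KPG1_2 the median was 0.34, without KP_3 it was 0.87, and with sex as a covariate it was 0.24. On doxycycline it was -0.33. DNA copy number was not measured in these data.

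Single tumors also stood apart on other chromosomes. KPG1_1 was at -0.55 on chromosome 8, where KP_1 was at 0.38, KPG1_2 was at -0.42 on chromosome 13, and KP_2 was at -0.47 on chromosome 3. Over all chromosomes, 2.59% of these genes were higher and 2.62% lower at an unadjusted p under 0.05. Chromosome 11 had 59 lower (7.27%) and 4 higher, chromosome 5 had 36 higher (5.42%) and 1 lower, and chromosome 14 had 20 higher (5.63%) and 3 lower. Chromosome 7, which carries *Ldha*, *Aldoa*, *Acadsb*, *Echs1* and *Gys1*, had 48 higher (6.58%) and 8 lower. Of the 45 list members of any kind that were higher at that level, 13 lie on chromosome 19 and 9 on chromosome 7, and of the 400 genes of any kind higher at that level, 77 and 64 do. Without its chromosome 19 members, the median was 0.26 for the glycolysis list, 0.37 for the NRF2 list, 0.25 for fatty acid oxidation and 0.18 for the PPARα targets. The part of a chromosome's level in the value of any gene was not tested.

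**Figure D5:**
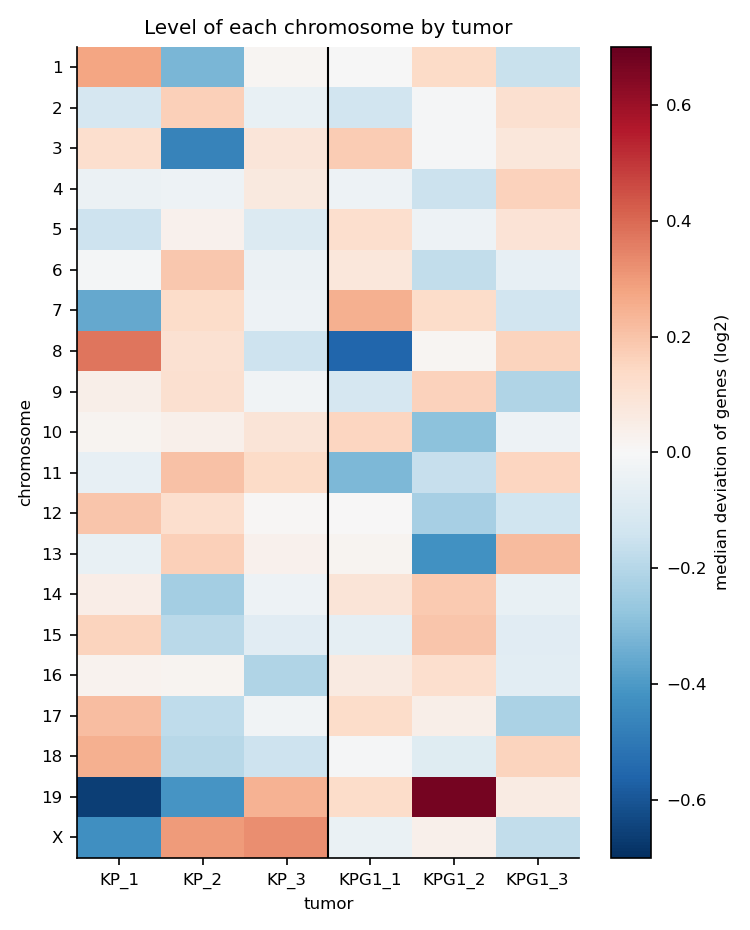
Median deviation, in log2 units, of the genes of each chromosome (rows) in each KP and KPG1 tumor (columns). Deviations are from a gene's mean over the 6 tumors, less the median deviation of all genes used in the same tumor. Red is positive and blue negative. The deepest colors are chromosome 19 in KPG1_2 (0.67) and KP_1 (-0.66) and chromosome 8 in KPG1_1 (-0.55).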

How the data were processed

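The authors sequenced poly(A) RNA of the CD45-negative fraction of 12 tumors (TruSeq stranded mRNA), used Cutadapt for trimming and HISAT2 for alignment on mm10, and deposited raw read counts per gene. The submitters' processing notes name featureCounts 1.4.4 and edgeR, and the annotation used for counting is not given in the sources used here. The table lists 39017 genes, 13548 without a count in any tumor, with all 37 mitochondrial genes at 0. Groups, sex and replicate numbers were taken from the labels.

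Counts were analysed with edgeR 4.0.16 (R 4.3.3): TMM, filterByExpr, glmQLFit and glmQLFTest, with the 12 tumors in one fit of 4 group means (8 residual degrees of freedom), and Benjamini-Hochberg adjustment over all genes tested at a threshold of 0.05. Each standard error (SE) was obtained from a gene's F value, as its log2 fold change over the root of F. Levels are CPM on TMM-scaled library sizes, and depth limits low genes only. Deviations of lists and chromosomes use log2 CPM with a prior count of 2. Positions and transcripts are those of GENCODE M21 on mm10, which held 96.4% of the identifiers and 99.75% of the counts, and copies were matched with BLAST+ 2.17.0. No exact permutation test of 3 against 3 tumors can reach a p below 0.1, so summed marker levels are given untested. Replicate numbers did not pair the tumors, which came from different mice.

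The genes, lists and comparisons were chosen with earlier results of these data known. Named genes are those past the threshold, a set of genes tied to the study's question, the 2 highest and 2 lowest members of each of 33 pathway and 12 marker lists with a mean of at least 1 CPM, the 15 protein-coding genes per direction with the smallest p among those not overlapping, and all glucose carriers and sex-linked genes. Any other gene was named after its values were seen, which includes list members counted at an unadjusted p under 0.05. Alternatives were DESeq2 1.42.0, limma 3.58.1 voom with and without the mouse as a random block, other normalizations and filters, the 6 tumors alone, sex or the replicate number as a covariate, tumors of a mouse summed, and leaving out each tumor. The effect of sex in that covariate came from the doxycycline tumors only, so it does not separate sex from genotype within the compared tumors. The scripts were tested on simulated counts with the spread of these data, in which 50 genes were changed in KPG1 by each of 4 folds. The adjusted threshold was passed by 2% of the 2-fold, 56% of the 4-fold, 82% of the 8-fold and 92% of the 16-fold changes. A gene that did not pass is therefore not shown to be unchanged. A few items withheld for evaluation are not reported here.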

Additional observations from a re-analysis of the deposited data

Results flagged for a closer look

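Among the 143 genes named, 13 had KPG1 tumors entirely on one side of the KP tumors on the regular diet and entirely on the other side on doxycycline, as had 188 of all 16527 genes tested (1.14%). Some of the genes named were chosen because their groups did not overlap on the regular diet, so their count cannot be read against that share. Another 83 genes (0.502%) were apart in the same direction on both diets. The value is the log2 fold change on the regular diet minus that on doxycycline, and for each of these genes the adjusted p of that difference was between 0.33 and 0.35 in edgeR's quasi-likelihood test, so no single difference passed.

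It was positive for *Afm* (4.18), the desaturase *Fads1* (1.95), the ATP synthase subunit *Atp5j* (0.80) and the lactate exporter *Slc16a1* (0.77). It was negative for *Plg* (-12.8, with 1 count in the KPG1 tumors), *Elovl2* (-10.8), *Satb1* (-9.68), *Zswim5* (-6.42) and *Pkdrej* (-6.20), all 5 of which were highest in KP_2, and for *Adpgk* (-1.49), *Stxbp5* (-1.17) and *Hsdl1* (-1.10). *Kdm6a*, which escapes X inactivation, had a value of -1.84, and the sexes of the compared groups differ between the diets. Groups of 3 tumors are too small for a test of single outlying tumors.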

How the results depend on the processing

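Of the 6 genes past the threshold, *Gm10036* and *BC002163* were called under all 18 and 17 alternatives that could fit them, *Hba-a2* under 9 of 18, *Tcea3* under 8 of 17, *Gm7125* under 6 of 16 and *Gm6594* under 5 of 16. The number of genes called was 57 in DESeq2, 10 in limma voom with the mouse as a random block, 10 with the compared tumors alone, and 2 each with a mean of at least 20 CPM, with sex as a covariate and with the tumors of a mouse summed. In the random block fit the estimated correlation within a mouse was -0.39, so that fit did not treat tumors of a mouse as more alike. It was 2 to 3 when 1 tumor was left out, with 3 without KP_2 and 2 without any other tumor. The replicate numbers did not pair the tumors, since same-numbered tumors came from different mice, and the fit with the replicate number as a block called 4 genes, 2 higher and 2 lower. The difference between the diets had 279 calls in DESeq2 and 0 elsewhere. On doxycycline, 4 of the 6 genes were called, against 1 with at least 20 CPM, 2 each with the compared tumors alone, sex as a covariate or mice summed, and 2 to 3 with a tumor left out, 2 without any of the KPG1-PPARαΔ13 tumors.

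Over 143 named genes and 18 alternatives, 2355 values kept direction and call, 39 lost the call, 33 gained it and 43, in 18 genes, changed sign. *Rpl11* was at -0.052 with the mouse as a random block, -0.00231 with upper-quartile scaling, -0.022 with at least 20 TPM, -0.00307 with at least 20 CPM and -0.30 with the sex covariate. *Slc2a1* was at 0.0023 in DESeq2, 0.034 with the random block, 0.0019 with RLE and 0.00700 without a filter. *Slc2a12* was at -0.57 with the sex covariate and *Ppara* at 0.13, *Gpx3* at 0.088 and *Slc22a5* at 0.045 with mice summed, and *Gpx3* at 0.11 with the sex covariate. The doxycycline value of *Hba-a2* was -0.032 in limma voom, -0.00250 with at least 20 TPM, -0.26 with the sex covariate, -0.060 with the replicate block and -0.046 with mice summed. With a tumor left out it ran from -0.72 to 0.55, *Gm13231* from -0.11 to 5.79, *Eno3* from -0.65 to 0.18, *Gpx3* from -0.78 to 0.30, *Hmox1* from -0.69 to 0.19, *Slc22a5* from -0.28 to 0.16, *Hk2* from -0.20 to 0.17, *Hmgn2* from -0.48 to 0.069, *Mki67* from -0.090 to 0.58, *Ndufs5* from -0.36 to 0.10, *Ppara* from -0.40 to 0.14, *Ptprc* from -1.93 to 0.10, *Rpl11* from -0.12 to 0.17, *Slc2a1* from -0.34 to 0.22, *Slc2a10* from -0.41 to 0.20, *Slc2a3* from -0.29 to 0.83, *Slc2a9* from -1.09 to 0.24 and *Trp53* from -0.24 to 0.11.

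Of the list medians, 556 moved by less than the spread between tumors and 36 by more. Pentose phosphate was at 0.19 in limma voom and 0.23 with the random block, the TCA cycle at -0.0077 with the random block and 0.14 with mice summed, and chemokines at 0.72 with at least 20 TPM. With the sex covariate, serine genes were at 0.19, glutamine genes at 0.27, lipid droplet genes at -0.058 and leukocyte markers at -2.08. Airway genes were at 0.23 in limma voom, 0.74 with at least 20 TPM, 0.98 with at least 20 CPM, 0.43 with the compared tumors alone, 0.62 with the sex covariate and 0.41 with mice summed. With a tumor left out, the medians ran from -0.085 to 0.33 for gluconeogenesis and glycogen, -0.14 to 0.24 for pentose phosphate, 0.010 to 0.14 for the TCA cycle, -0.015 to 0.27 for glutamine, 0.22 to 0.42 for mitochondrial oxidation, -0.055 to 0.37 for fatty acid synthesis, -0.10 to 0.19 for lipid droplets, -0.15 to 0.090 for cholesterol, 0.18 to 0.50 for airway genes, -0.38 to 0.34 for gut genes, -0.20 to 0.15 for interferon genes and -1.58 to -0.41 for leukocyte markers. The cause of these moves was not tested. Chosen after seeing the data, the chromosome 19 median was recomputed under the same alternatives and ran from 0.24 with the sex covariate to 0.87 without KP_3, and the 10 chromosome 4 genes lower on both diets were 5 with the sex covariate, 6 with at least 20 TPM or 20 CPM and 7 to 12 otherwise. The counts without KP_2 were also added then.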
